A study of Mus musculus with 4 samples.

Results

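A set of 10 genes of the stomach and gut epithelium, out of 28096 genes in the deposited tables, was followed in cultured mouse alveolar type II cells: the nuclear receptor gene Hnf4a, the gastrokine genes Gkn1 and Gkn2, the trefoil factor genes Tff1, Tff2 and Tff3, the protease gene Ctse, the galectin gene Lgals4, the villin gene Vil1 and the antibody transporter gene Pigr. They were chosen because they are known to rise in lung adenocarcinoma that has lost the lung lineage factor NKX2-1, and were found in the tables by their Entrez identifiers. RNA with a poly(A) tail was sequenced in 4 libraries that share the genotype label KRasEtv wt. The design text lists 3 genotypes with 4 mice each, which differ in their Etv alleles: Etv4KO/KO with Etv5loxp/loxp, Etv5loxp/loxp alone, and neither of these. The labels do not say which of them KRasEtv wt stands for, and other labels were not analysed here. All 3 carry RosaCreERT2, a Cre recombinase that is made broadly from the Rosa locus and is switched on by 4-hydroxytamoxifen. The cells were sorted from lung as positive for EpCAM and negative for CD24, CD45, CD31 and Pdpn. Culture was in matrigel and BEGM (bronchial epithelial growth medium). 4-hydroxytamoxifen at 100 nM was present for 4 days and absent for 1 more day before harvest. The labels do not tie a library to a mouse and give no replicate number, so libraries 1 to 4 are named in accession order, and the spread between them may be partly technical.

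Lung and stomach epithelium both arise from the foregut endoderm of the embryo, and NKX2-1 is the factor that marks the lung side of that border. In mouse lung tumours, loss of NKX2-1 is known to let the forkhead factors FOXA1 and FOXA2 bind gastric and intestinal genes, and HNF4A, gastrokines, trefoil factors and cathepsin E then appear in mucus-forming tumours. The same genes therefore serve as signs of a gastric programme in lung epithelium, although some of them are also made in healthy airways or alveoli. The labels name no tumour and no loss of NKX2-1 in these cultures.

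Levels are the authors' nRPKM, a read count scaled by a size factor for the library and by gene length, and a gene counted as detected in a library with more than 3 reads. The members split into strong, weak and unseen genes. Gkn2 and Ctse were strong, Lgals4, Vil1 and Hnf4a were weak but above the floor in every library, Tff2 passed the floor in 2 libraries, Pigr in none, and Gkn1, Tff1 and Tff3 had no read at all. These are bulk libraries, in which a gene made by few cells and a gene made at a low level by all cells cannot be told apart. Thus 5 of the 10 genes had more than 3 reads in every library, against 52.2% of all genes, and also 5 of 10 with more than 10 reads, against 46.6%. A mean of 1 nRPKM or more was reached by 2 of 10, against 42.4% of all genes, and a mean of 1 CPM or more, which is not scaled for length, by 5 of 10, against 49% of all genes. Without a read in any library were 3 of 10, against 26.8% of all genes. Gkn2 and Ctse together held 95.6% ± 2.24 of the summed level of the 10 genes (SD, n = 4), and the sum ran from 45.7 to 65.5 nRPKM per library. The median of the 10 mean levels was 0.379 nRPKM, beside 0.345 nRPKM for all genes.

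**Figure D1:**
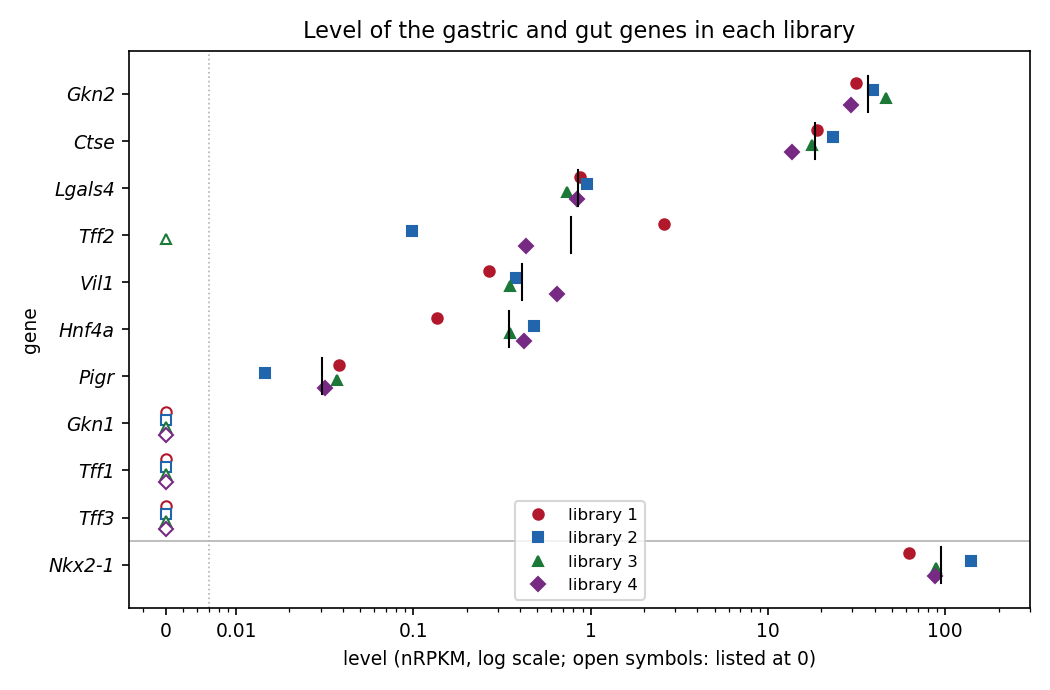
Level of each of the 10 genes, and of Nkx2-1 for scale, in each library (x axis, nRPKM on a log scale; open symbols are listed at 0; vertical bars are means over 4 libraries). Gkn2 and Ctse sit above 10 nRPKM in every library, the other members below 1 except Tff2 in library 1, and Gkn1, Tff1 and Tff3 at 0.

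The gastrokines are small secreted proteins of the stomach surface mucosa, and their genes Gkn1, Gkn2 and Gkn3 lie next to each other on chromosome 6. They are shown first because neighbours in the same cluster had different levels: Gkn2 was the highest member and Gkn1 had no read. RefSeq promoter windows (build GRCm38.p6, the 250 bases before each gene's start, read 5′ to 3′ along the gene's own strand) follow, with any match to a searched motif in capitals. The Gkn2 window is chr6:87373115-87373364 on the plus strand, the Gkn1 window chr6:87350916-87351165 on the minus strand and the Gkn3 window chr6:87388936-87389185 on the minus strand.
Gkn2: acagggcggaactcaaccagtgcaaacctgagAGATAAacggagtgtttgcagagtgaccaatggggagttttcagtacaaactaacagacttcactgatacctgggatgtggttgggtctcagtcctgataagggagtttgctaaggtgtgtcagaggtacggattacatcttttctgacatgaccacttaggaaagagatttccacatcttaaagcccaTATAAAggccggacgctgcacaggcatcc
Gkn1: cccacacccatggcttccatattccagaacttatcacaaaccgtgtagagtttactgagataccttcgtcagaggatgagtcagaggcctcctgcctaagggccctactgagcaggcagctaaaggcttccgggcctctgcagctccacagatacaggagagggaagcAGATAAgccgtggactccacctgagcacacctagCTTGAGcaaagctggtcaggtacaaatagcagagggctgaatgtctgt
Gkn3: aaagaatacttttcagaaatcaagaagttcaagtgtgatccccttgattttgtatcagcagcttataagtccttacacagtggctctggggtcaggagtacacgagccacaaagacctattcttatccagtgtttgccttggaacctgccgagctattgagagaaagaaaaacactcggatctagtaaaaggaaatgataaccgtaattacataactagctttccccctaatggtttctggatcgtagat
Each motif was searched on both strands. The TATA box TATAAA was found in the Gkn2 window, starting 29 bases before the gene's start, and not in the Gkn1 and Gkn3 windows; 12.4% of all 32851 RefSeq windows hold it. The GATA motif AGATAA began 218 bases before the start in Gkn2 and 82 bases before it in Gkn1, and 9.99% of windows hold it. The NKX2-1 core CTCAAG was matched in Gkn1 only, as its reverse complement 48 bases before the start, and occurs in 13.3% of windows. None of the 3 windows held the forkhead motif TGTTTAC (3.17% of windows), the HNF4 motif CAAAGTCCA (0.384%) or the PEA3 motif AGGAAG (29.5%), which is bound by ETV4 and ETV5. Only these exact letters were searched, so sites of another form that the same factors bind could be present in the windows. The motifs do not overlap in these windows, a match is a description of the letters, and no member other than the gastrokines is shown by sequence.

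Gkn2 (Entrez 66284) had 31.4, 39.4, 46.2 and 29.6 nRPKM in libraries 1 to 4, from 497, 543, 752 and 375 reads. It ranked 890th of all genes by mean level, 36.6 ± 7.67 nRPKM (SD, n = 4), and its highest library exceeded its lowest by 1.56 times. Gkn1 (Entrez 66283) was listed at 0 in all 4 libraries. Both proteins are made by the same surface mucous cells of the stomach, where GKN2 forms a dimer with the trefoil peptide TFF1. A floor of 3 reads per library, turned into a level with the exon length of Gkn1 in GENCODE, lay between 0.117 and 0.151 nRPKM. The level of Gkn2 was 196 to 393 times that floor. The 95% upper limit of a count of 0 is 3.69 reads, so 196 is not a lower bound on the fold over Gkn1. The difference of log2(nRPKM + 1) of Gkn2 and Gkn1 was 5.21 ± 0.29 (SD, n = 4) and positive in each of 4 libraries (exact permutation test by sign flips, two-sided, p = 0.13, adjusted p = 0.18 over 7 differences). That p is the smallest that 4 libraries can give, and with Gkn1 at 0 the difference could not be negative. Gkn3, which is known as a marker of mouse gastric mucous neck cells, had 0.186, 1.14, 0.964 and 0.387 nRPKM, from 3, 16, 16 and 5 reads. Both gastrokine genes with reads were thus higher in libraries 2 and 3 than in 1 and 4, with Gkn3 close to the floor in library 1.

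The trefoil factors are secreted peptides that bind mucins and aid repair of mucosa: TFF1 comes from gastric surface cells, TFF2 from gastric mucous neck cells and TFF3 from intestinal goblet cells. Their genes form a cluster on chromosome 17. Tff1 (Entrez 21784) and Tff3 (Entrez 21786) had no read in any library, and 3 reads would have been 0.209 to 0.268 nRPKM for Tff1 and 0.298 to 0.383 nRPKM for Tff3, again with GENCODE lengths. Tff2 (Entrez 21785) had 2.58, 0.0986, 0 and 0.430 nRPKM in libraries 1 to 4, from 30, 1, 0 and 4 reads. Nearly all reads of Tff2 came from library 1, where the 95% Poisson interval of the count was 20.2 to 42.8 reads. Its mean of 0.776 ± 1.21 nRPKM (SD, n = 4) became 0.176 nRPKM without library 1. On the log2(nRPKM + 1) scale Tff2 minus Tff1, and equally Tff2 minus Tff3, was 0.62 ± 0.84 (exact permutation test, two-sided, p = 0.25, adjusted p = 0.25). Because Tff1 and Tff3 were at 0, both differences are the same values and could not be negative, so their sign tells nothing. Tff2 was above 0 in 3 of 4 libraries, with 1 read in library 2, under the floor. In library 3 no read was counted for any trefoil gene. Without library 1 each difference was 0.22.

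Cathepsin E, encoded by Ctse (Entrez 13034), is an aspartic protease of gastric mucous cells and of antigen-presenting cells. Ctse had 18.9, 23.3, 17.8 and 13.7 nRPKM in libraries 1 to 4, from 817, 878, 792 and 473 reads. Every library lay below the lowest Gkn2 value of 29.6 nRPKM, and the highest Ctse library exceeded the lowest by 1.70 times. The gastric aspartic protease precursor gene Pgc, which is also a known type II cell gene in human lung, had 1, 2, 1 and 1 reads, under the floor in every library, and a mean of 0.0489 ± 0.0221 nRPKM (SD, n = 4). Ctse minus Pgc was 4.19 ± 0.28 on the log2(nRPKM + 1) scale, positive in 4 of 4 libraries (exact permutation test, two-sided, p = 0.13, adjusted p = 0.18). The ratio of the mean levels was 377, with a 95% interval from the 5 reads of Pgc of 162 to 1161 that covers counting error only. Leukocytes are another known source of Ctse, although the cells were sorted as negative for CD45 before culture. Of 10 leukocyte markers, 6 averaged at least 1 nRPKM, against 42.4% of all genes. The pan-leukocyte gene Ptprc had 29 to 70 reads and a mean of 0.422 nRPKM, and Cd3e and Cd79a did not pass the floor in any library. The summed level of the 10 markers was 95.5, 96.3, 75.4 and 46.5 nRPKM in libraries 1 to 4. Ctse was likewise highest in library 2 and lowest in library 4, but the leukocyte sum was nearly as high in library 1. Of 8 markers with at least 20 reads, 4 were highest in library 2 and 3 in library 1, and 6 were lowest in library 4. Of the 3 highest markers, Cd68 and Cd14 were highest in library 1 and Lyz1 in library 3. The forkhead factor gene Foxa1 had the same highest and lowest library as Ctse, at 9.38 and 5.77 nRPKM, while Ptprc was lowest in library 3. The part of leukocytes in the Ctse level was not tested.

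Lgals4 (Entrez 16855), which encodes a galectin that binds sugars on the gut epithelial surface, had the smallest coefficient of variation of the members with reads. It had 0.870, 0.953, 0.731 and 0.840 nRPKM in libraries 1 to 4, from 22, 21, 19 and 17 reads, and a mean of 0.849 ± 0.0917 nRPKM (SD, n = 4). Its coefficient of variation between libraries, 10.8%, lay below the 22.5% that counting alone gives at its mean count. A difference between libraries within counting error could therefore not be seen for Lgals4. Lgals3, the galectin of macrophages and injured alveolar epithelium, had 264, 122, 90.8 and 59.4 nRPKM. Lgals4 minus Lgals3 was -5.97 ± 0.88 on the log2(nRPKM + 1) scale, and Lgals4 was lower in 4 of 4 libraries (exact permutation test, two-sided, p = 0.13, adjusted p = 0.18). The ratio of Lgals3 to Lgals4 ranged from 70.7 in library 4 to 304 in library 1. The highest library exceeded the lowest by 4.45 times for Lgals3 and by 1.30 times for Lgals4.

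Villin, encoded by Vil1 (Entrez 22349), bundles actin in the brush border of the intestine. Vil1 had 0.268, 0.379, 0.352 and 0.650 nRPKM in libraries 1 to 4, from 17, 21, 23 and 33 reads. Library 4 was highest, and the libraries otherwise lay close together. The exons of Vil1 overlap those of the gene Usp37 on the other strand by 49 bases in GENCODE, and reads there cannot be told apart where strand use is not stated. The related villin-like gene Vill had 5.59, 3.11, 3.37 and 3.47 nRPKM. Vil1 minus Vill was -1.77 ± 0.42 on the log2(nRPKM + 1) scale, lower in 4 of 4 libraries (exact permutation test, two-sided, p = 0.13, adjusted p = 0.18).

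Pigr (Entrez 18703) encodes the receptor that carries dimeric IgA across mucosal epithelium and is a known gene of airway secretory cells. It had 3, 1, 3 and 2 reads in libraries 1 to 4, at or under the floor in each, and a mean level of 0.0305 nRPKM. GENCODE lengths place the floor between 0.0382 and 0.0490 nRPKM, and the 95% upper limits of the counts reach 0.0815 to 0.115 nRPKM, so Pigr was not told from absence at this depth.

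**Figure D2:**
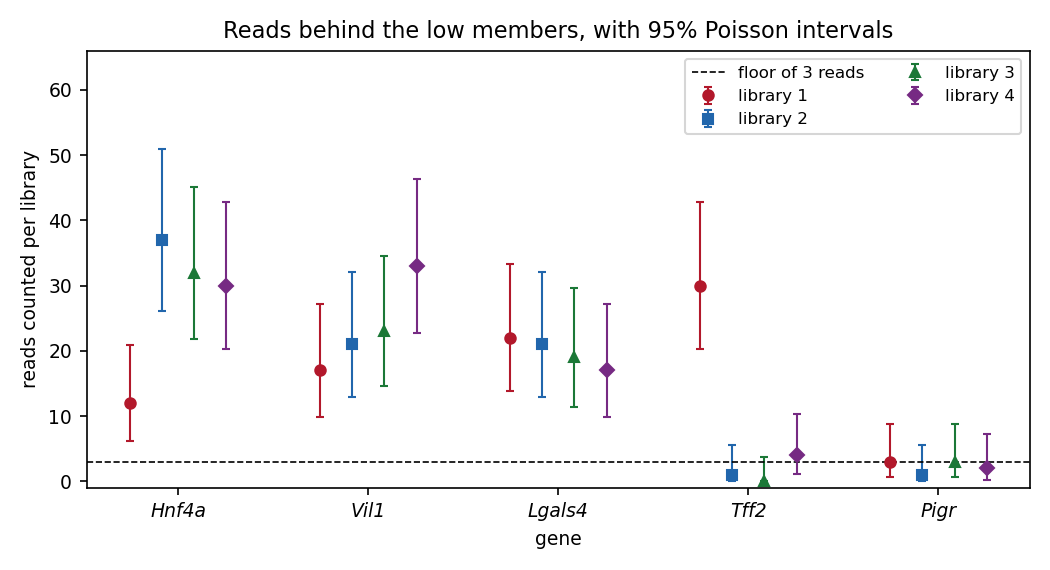
Reads counted per library for the 5 members with few reads (y axis), with 95% Poisson intervals for counting error and the floor of 3 reads as a dashed line. Hnf4a, Vil1 and Lgals4 lie above the floor in every library, Tff2 reaches 30 reads in library 1 only, and Pigr stays at 1 to 3 reads.

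HNF4A is the nuclear receptor that drives hepatic and intestinal genes, and in lung tumours without NKX2-1 it marks the gastric programme. Hnf4a (Entrez 15378) had 0.135, 0.478, 0.351 and 0.422 nRPKM in libraries 1 to 4, from 12, 37, 32 and 30 reads. Library 1 was lowest, with a counting interval of 0.0698 to 0.236 nRPKM, and the nearest interval was that of library 3, 0.240 to 0.495 nRPKM. The mean was 0.347 ± 0.150 nRPKM (SD, n = 4) and 0.417 nRPKM without library 1. Nkx2-1 (Entrez 21869), the lung factor whose absence defines tumours with these genes, had 62.4, 140, 88.7 and 87.2 nRPKM in the same libraries. Hnf4a minus Nkx2-1 was -6.10 ± 0.34 on the log2(nRPKM + 1) scale, with Hnf4a lower in 4 of 4 libraries (exact permutation test, two-sided, p = 0.13, adjusted p = 0.18). The level of Nkx2-1 exceeded that of Hnf4a by 206 to 462 times, least in library 4 and most in library 1. In GENCODE an antisense gene, Hnf4aos, overlaps the Hnf4a locus but shares no exon base with it, and the counts do not separate the transcripts from the Hnf4a promoters.

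In order of mean level the members ran Gkn2, Ctse, Lgals4, Tff2, Vil1, Hnf4a, Pigr and then the 3 genes at 0. The libraries of Gkn2 and Ctse did not overlap, nor did those of Ctse and Lgals4 or of Hnf4a and Pigr. Lgals4 and Tff2, Tff2 and Vil1, and Vil1 and Hnf4a overlapped, so their order was not resolved by these libraries. Of the members' transcripts, only Tff1 (19.3% of its 50-base words, with its antisense gene Gm15318) and Pigr (0.480%) share words with another GENCODE gene, and the 0 of Tff1 may therefore miss reads that were not unique.

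**Figure D3:**
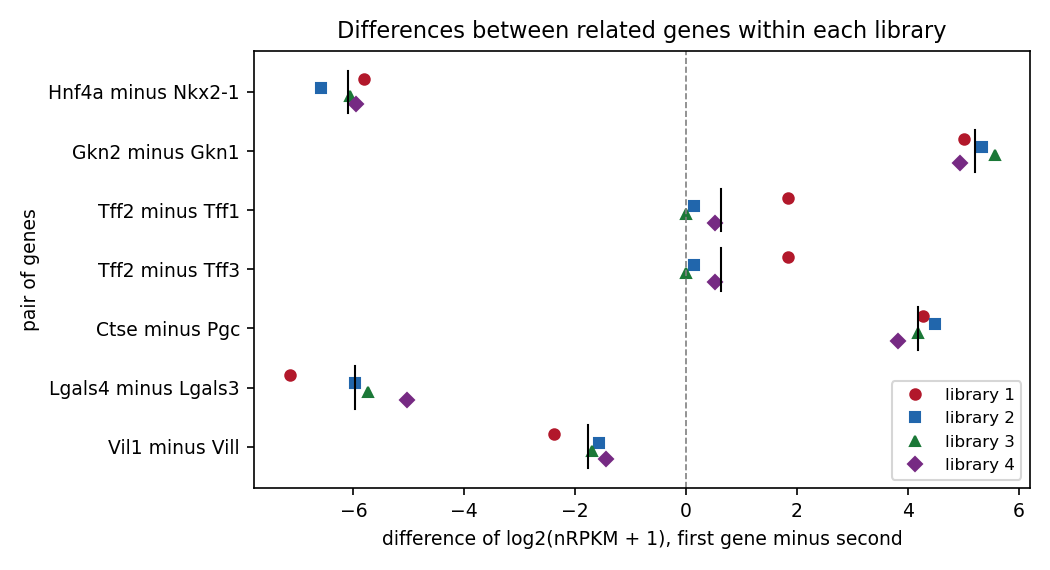
Difference of log2(nRPKM + 1) between related genes within each library (x axis), first gene minus second, with the mean as a bar. Gkn2 and Ctse lie above their partners by 5.21 and 4.19 on average, Hnf4a, Lgals4 and Vil1 below theirs by 1.77 to 6.10, and Tff2 reaches 0 in library 3.

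None of the members was called as varying between libraries. Spread was tested over all genes with edgeR's quasi-likelihood dispersion, in which 2 of 13156 genes (0.0152%) were called. Of the 5 members with enough reads, 0 were called and 0 had an unadjusted p under 0.05. The dispersion relative to the trend was 2.48 for Hnf4a, 1.37 for Ctse, 1.32 for Vil1, 1.12 for Gkn2 and 0.115 for Lgals4, with edgeR adjusted p-values of 0.997 to 0.998. Leaving out a library moved this ratio to between 0.250 and 3.89 for Hnf4a, 0.786 and 1.97 for Ctse, and 0.274 and 2.07 for Vil1. For Gkn2 it lay between 0.545 and 1.63, and for Lgals4 between 0.0441 and 0.200. Lgals4 stayed lowest whichever library was left out, but the order of Hnf4a, Ctse, Vil1 and Gkn2 by spread rests on single libraries. With 0.250 for Hnf4a it was library 1 that was left out, and with 0.274 for Vil1 library 4. Without the filter on low counts 66 of 20579 genes were called (0.321%), and 0 of 7 members; Tff2 had the smallest p there (unadjusted p = 0.00111, adjusted p = 0.15, edgeR). DESeq2 marked 71 of 20579 genes (0.345%) as dispersion outliers, and none of the members. The highest library of Hnf4a exceeded its lowest by 3.54 times, and by 1.36 times without library 1, where Vil1 spanned 1.84 times and Ctse 1.70 times. The absence of calls does not show that the members did not vary.

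The listed gut transcription factors were partly present. Of 12 factors described, 6 had more than 3 reads in every library, against 52.2% of all genes. Foxa3, Sox2 and Onecut2 were among them, with means of 0.477, 0.389 and 0.253 nRPKM. A mean of at least 1 nRPKM was reached by 3 of 12, against 42.4% of all genes. These 3 were Gata6 (12.4 ± 1.59), Foxa2 (10.1 ± 2.30) and Foxa1 (7.31 ± 1.54), in nRPKM (SD, n = 4). Gata6 is an endoderm factor, and the forkhead factors Foxa2 and Foxa1 normally act with NKX2-1 in lung. The intestinal homeobox factor Cdx1, the pancreatic and antral factor Pdx1 and the nuclear receptor gene Nr5a2 had no read, and Cdx2, Hnf4g and Gata4 had means of at most 0.129 nRPKM. The median of the 12 mean levels was 0.191 nRPKM, beside 0.345 nRPKM for all genes.

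Other gastric products followed the same split. The counts below stand beside the 42.4% of all genes that had a mean of at least 1 nRPKM. Of 12 listed genes, 4 had a mean of at least 1 nRPKM: Cldn18 (420 ± 40.3), the tetraspanin gene Tspan8 (141 ± 23.6), Psca (4.88 ± 2.49) and the annexin gene Anxa10 (2.13 ± 1.41; nRPKM, SD, n = 4). Cldn18 encodes a tight junction claudin with a lung form and a stomach form from separate first exons, which counts per gene do not separate. The acid pump gene Atp4b and the gastrin gene Gast had no read, and the pump gene Atp4a, the intrinsic factor gene Cblif and the gel mucin genes Muc5ac and Muc6 had means of at most 0.181 nRPKM. Of 20 intestinal products, 4 reached a mean of 1 nRPKM, led by the antimicrobial lectin gene Reg3g (4.62 ± 5.88), Agr2 (1.68 ± 1.94), which helps mucins fold, and Krt20 (1.30 ± 0.664; SD, n = 4). Without library 1 the means were 1.70 nRPKM for Reg3g and 0.714 nRPKM for Agr2, and 3 of 20 reached 1 nRPKM. The goblet mucin gene Muc2 had 1 to 3 reads, and Muc13, Mep1a, Reg3b and Clca1 had none. Of 7 hepatic products, Afp (4.09 ± 1.61 nRPKM) was the only gene with a mean of at least 1, followed by Alb (0.677 ± 0.434) and Apoa1 (0.132 ± 0.120; SD, n = 4). The medians of these lists were 0.135, 0.0328 and 0.0472 nRPKM, all below the 0.379 nRPKM of the 10 members and the 0.345 nRPKM of all genes.

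**Figure D4:**
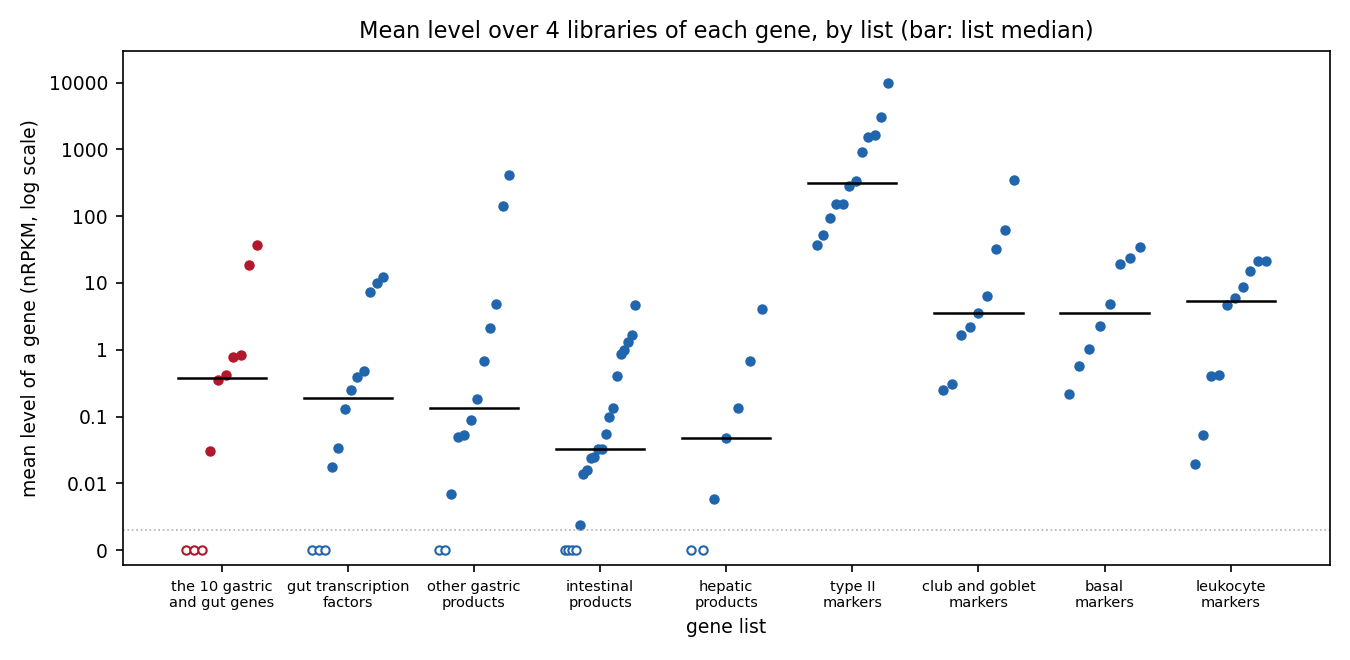
Mean level over 4 libraries of every gene on each list (y axis, nRPKM on a log scale; open symbols had no read; bars are list medians). Of the gut lists only a few genes exceed 10 nRPKM, which are Gkn2, Ctse, Gata6, Foxa2, Cldn18 and Tspan8, while all 12 type II markers do.

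The labelled cell type was checked against its markers and those of cells that make some of these genes. All 12 type II markers had a mean of at least 10 nRPKM, led by Sftpc (10006 ± 3649), Sftpb (3065 ± 1133) and Lyz2 (1663 ± 381), with a median of 310.0 nRPKM. Against 42.4% of all genes, 7 of 9 club and goblet markers had a mean of at least 1, led by Scgb1a1 (350 ± 358), Bpifa1 (62.2 ± 30.2) and Cyp2f2 (32.4 ± 15.7). Of 8 basal markers 6 did, led by Krt5 (34.0 ± 27.3), Krt6a (23.9 ± 16.1) and Krt14 (19.3 ± 13.1). The leukocyte list was led by Cd68 (21.7 ± 11.0), Lyz1 (21.3 ± 10.4) and Cd14 (15.2 ± 2.81; nRPKM, SD, n = 4 throughout). No marker of these 4 lists was without a read, against 26.8% of all genes, but Cd3e and Cd79a of the leukocyte list had at most 3 reads in a library. Between 12133251 and 13591876 reads were counted per library, of which mitochondrial ribosomal RNA took 19.6% to 38.9%.

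Library 1 was lowest for Hnf4a and Vil1 and highest for Tff2. It was lowest for 11 of the 12 type II markers, which summed to 11482 nRPKM there and to between 18495 and 24335 nRPKM in the other libraries; 25.4% of all genes with at least 20 reads were lowest in library 1. It was highest for 6 of 8 basal markers, against 25.3% of all genes with at least 20 reads. The basal markers summed to 159, 112, 22.3 and 52.5 nRPKM in libraries 1 to 4. The club and goblet markers summed to 333, 1066, 152 and 285 nRPKM in libraries 1 to 4, and 4 of 9 were highest in library 1 and 4 in library 2. Tff2 was lowest in library 3, as were 8 of 8 basal and 7 of 9 club and goblet markers, against 23.0% of all genes with at least 20 reads. The part of these cell types in the levels of Tff2, Vil1 and Hnf4a was not tested.

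Several gut genes outside the 10 shared the position of library 1, and they were picked after their values were seen. Among genes with at least 20 reads, library 1 was highest for 3 of 7 gut factors, against 25.3% of all such genes. It was also highest for 3 of 7 other gastric, 3 of 7 intestinal and 1 of 3 hepatic products. Lowest there were 2, 1, 1 and 2 genes of these lists in that order, against 25.4% of all such genes. Library 3 was likewise highest for 3 of 7 intestinal products. With Tff2, the mucosal genes Reg3g (13.4, 2.62, 1.05 and 1.43 nRPKM in libraries 1 to 4) and Agr2 (4.58, 0.815, 0.440 and 0.888) and the factor gene Onecut2 (0.670, 0.160, 0.0535 and 0.128) were highest in library 1. With Hnf4a, the albumin gene Alb had 3 reads in library 1 and 28 to 37 in the others, and the glucose transporter gene Slc5a1 had 4 reads in library 1 and 33 to 48 in the others. The hepatic gene Afp went the other way from Alb, with 6.37, 4.00, 2.66 and 3.35 nRPKM in libraries 1 to 4. The filter on low counts left Agr2, Alb and Slc5a1 untested; Reg3g (adjusted p = 0.34), Onecut2 (adjusted p = 0.47) and Afp (adjusted p = 0.997) were tested and not called (edgeR). Without the filter Reg3g (adjusted p = 0.00686) and Onecut2 (adjusted p = 0.0254) were called, and Agr2 (adjusted p = 0.22), Slc5a1 (adjusted p = 0.38), Alb (adjusted p = 0.40) and Afp (adjusted p = 0.96) were not (edgeR).

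**Figure D5:**
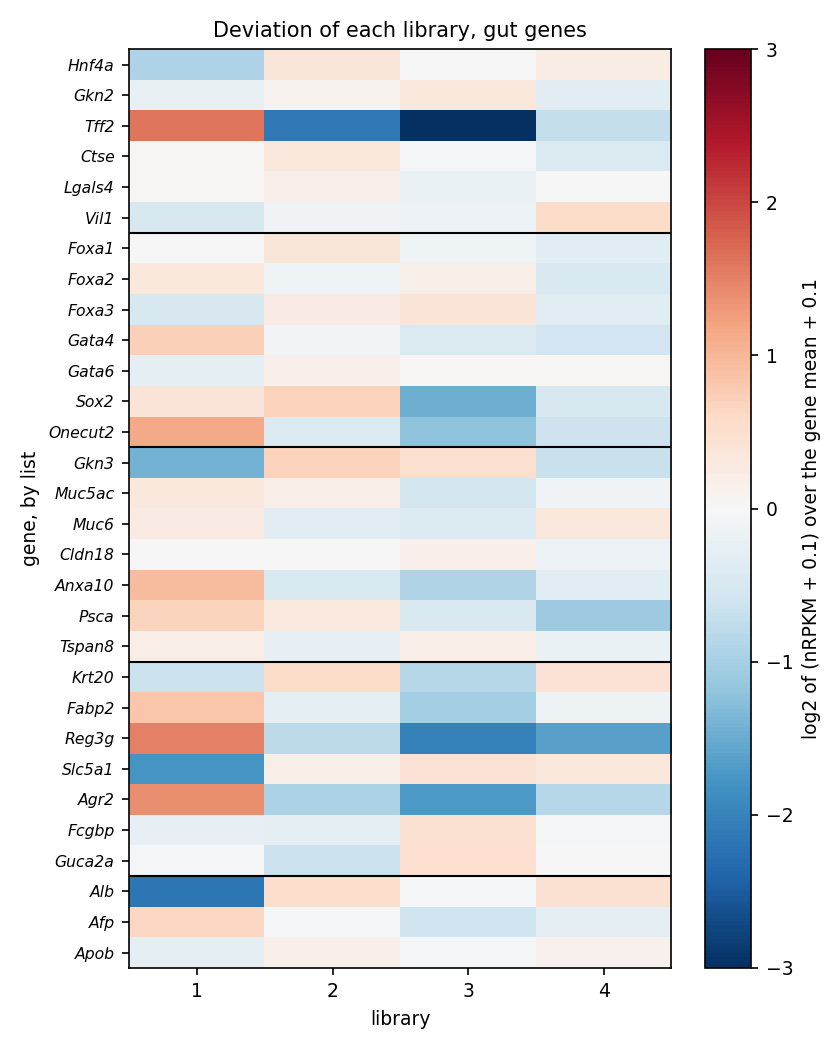
Deviation of each library from the gene's mean (colour, log2 of nRPKM + 0.1 over the mean + 0.1, capped at 3 in either direction) for members and other gut genes with at least 20 reads in all, grouped by list. Tff2, Reg3g and Agr2 are red in library 1, Hnf4a, Slc5a1 and Alb are blue there, and Gkn2, Ctse and Lgals4 are pale in every library.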

How the data were processed

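For each library the authors deposited 2 values for each of 28096 Entrez identifiers. Per the file headers, the deposited count is the number of reads aligned uniquely to the gene model, and the other deposited column is RPKM adjusted by size factors (nRPKM). Per the submitters' processing notes, GSNAP and mm9 were used; the annotation, versions and strand use were not given in the sources used here. By the values themselves, nRPKM is the count times a library factor over a gene length. Symbols of 25035 identifiers came from RefSeq (GRCm38.p6) by Entrez identifier, and all listed genes matched; lengths for floors and shared 50-base words came from GENCODE M21 (GRCm38). Coordinates are those of GRCm38.p6 and not of the authors' build. Promoter windows were found for 6 of the 10 genes.

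Total counts were 12133251, 12987938, 12928901 and 13591876 in libraries 1 to 4, so 3 reads are 0.247, 0.231, 0.232 and 0.221 CPM. Intervals are exact Poisson at 95%. They and the floors reflect counting error alone, because the reads carry no molecular identifiers. Library pairs correlated at r of 0.977 to 0.984 across genes (log2 nRPKM + 1) and differed by 39.0 to 113 times sampling noise, so no library repeats another. Differences between genes within a library used a pseudocount of 1 and two-sided exact sign-flip tests over 4 libraries, with Benjamini-Hochberg adjustment over 7. Spread was tested on counts of all genes with edgeR 4.0.16 in R 4.3.3 (intercept only, TMM, filterByExpr, quasi-dispersion against the trended prior by the F distribution, Benjamini-Hochberg at 0.05), tested on simulated data; DESeq2 1.42.0 was an alternative. With a single group there was no comparison of conditions.

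The 10 members, the 8 other lists and the 7 gene pairs were chosen with earlier results of these data known. Named genes are all members, both genes of each pair, Foxa1, Foxa2, the 3 highest genes of each list and any called gene; further genes were named after their values were seen, and a few listed items are not reported here. Genes most like a member were to be named for members with over 10 reads in every library and a range of at least 4-fold, and no member qualified. Alternatives were CPM, library sizes without mitochondrial ribosomal RNA, a floor of 10 reads, a pseudocount of 0.1, other scaling, no filter, DESeq2, and leaving out each library; counts of the other lists without each library were added after the data were seen.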

Additional observations from a re-analysis of the deposited data

Results flagged for a closer look

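In 4 of 42 values tested, a single library stood apart from the other 3 by more of the whole range than Dixon's 95% critical value, which chance gives for about 1 in 20 groups, and in each it was library 1 that was high. They were Tff2 (2.58 nRPKM), Reg3g (13.4 nRPKM), Agr2 (4.58 nRPKM) and the villin-like gene Vill (5.59 nRPKM). Library 1 also had the highest sum of basal airway markers, 159 nRPKM, and the lowest sum of type II markers, 11482 nRPKM; their part in these 4 genes was not tested.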

How the results depend on the processing

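Of 65 alternative values of the main results, 64 were counted as the same. This meant the same sign for differences, a shift within the SD for the share, and a ratio within a set limit for counts. A change from 2 to 3 members just met that limit. No value was past a test's threshold or came to pass one, and with 4 libraries the paired differences could not reach it. The exception was the number of members with a mean of at least 1, which was 2 in nRPKM and 5 in CPM, where long genes gain by construction; without library 2 or library 3 it was 3, since Tff2 then passed, and it lay between 2 and 3 over the libraries left out. The share of Gkn2 and Ctse in the summed level lay between 94.9% and 96.5% when a library was left out and was 93.7% in CPM. The number of members above the floor stayed at 5 with a floor of 10 reads and without any single library. The number of members called as varying was 0 in all 7 alternatives. With a pseudocount of 0.1 the difference of Gkn2 and Gkn1 was 8.50 and that of Hnf4a and Nkx2-1 was -7.75, so the sizes of differences with a gene near 0 depend on the pseudocount. Leaving out a library moved the mean of Tff2 over a range of 0.176 to 1.04 nRPKM. No comparison of conditions, paired or not, was possible because there is a single group. Depth limits Tff2, Pigr and the genes without reads: a level under about 3 reads per library could not be told from absence.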
